A study of Homo sapiens with 2 samples.

Results

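CAMA-1 is an established line of epithelial cells from human breast adenocarcinoma. The chromatin of 10 genes of the HLA class II pathway was examined in it, among 20033 protein-coding genes of GENCODE release 44. They were chosen by name: HLA-DRA, HLA-DRB1, HLA-DQA1, HLA-DQB1, HLA-DPA1, HLA-DPB1, HLA-DMA and HLA-DMB on chromosome 6, CD74 on chromosome 5 and CIITA on chromosome 16. Accessibility was measured by ATAC-seq, in which the transposase Tn5 inserts sequencing adapters where DNA is open. Libraries were prepared from 2 biological replicates of 50000 untreated CAMA-1 cells in adherent culture with serum, and peaks were called in each replicate on its own. Both replicates belong to 1 condition, so no groups were compared, and the spread between replicates is the only error available. All values below are fold enrichments as deposited: the height of the stacked reads over 1 genome-wide background, which was 3.35 stacked reads in replicate 1 and 3.52 in replicate 2. Because this background is the same at every locus, the fold of different genes also reflects any local difference in DNA copy number, which was not analysed here. A median peak had a height of 35 in either replicate.

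HLA class II molecules present peptides from endosomes to CD4+ T cells. Each is a pair of an alpha and a beta chain, assembled on the invariant chain CD74 and loaded with peptide by HLA-DM. Their genes are active mainly in B cells, dendritic cells and macrophages, and in other cells, epithelium included, after interferon gamma. The shared control lies in promoters with an X box, bound by the RFX complex, and a Y box, bound by NF-Y. CIITA, the class II transactivator, docks on these factors without binding DNA itself, and its own gene is read from separate promoters: pI in dendritic cells and macrophages, pIII in B cells and pIV after interferon gamma.

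The X and Y boxes are shown first, since they are the elements by which class II promoters are known. Promoter sequences of RefSeq (GRCh38.p14, 250 bases before to 50 bases after the start of the gene) were matched to 8 members, with 9 promoters since HLA-DPA1 has 2, and HLA-DRA and CIITA were not matched. The X core was searched as AG, any 2 bases, AC, any 2 bases and ATG, with at most 1 mismatch in these 7 letters, and the Y box as ATTGG beginning 10 to 35 bases after it, and matches on the strand of the gene are shown. Below, each stretch is read 5′ to 3′ on the strand of its gene, the capitals mark the X core and then the Y box, and 10 bases are added on each side.
HLA-DRB1, chr6:32589880-32589937, minus strand: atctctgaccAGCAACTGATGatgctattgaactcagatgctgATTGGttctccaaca
HLA-DQB1, chr6:32666731-32666788, minus strand: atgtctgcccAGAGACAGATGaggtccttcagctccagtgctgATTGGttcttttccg
HLA-DPB1, chr6:33075848-33075905, plus strand: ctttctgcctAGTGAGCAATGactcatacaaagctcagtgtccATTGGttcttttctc
HLA-DMA, chr6:32953162-32953220, minus strand: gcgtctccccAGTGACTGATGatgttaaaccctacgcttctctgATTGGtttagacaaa
HLA-DMB, chr6:32941096-32941126, minus strand: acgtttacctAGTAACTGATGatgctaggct
CD74, chr5:150412949-150413001, minus strand: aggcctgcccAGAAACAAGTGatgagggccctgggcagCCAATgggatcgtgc

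The X core was exact in HLA-DRB1, HLA-DQB1, HLA-DMA and HLA-DMB and held 1 mismatch in HLA-DPB1 and CD74. It began 79 bp upstream of the RefSeq start in HLA-DRB1, 121 bp in HLA-DQB1, 132 bp in HLA-DPB1, 113 bp in HLA-DMA, 88 bp in HLA-DMB and 81 bp in CD74. The Y box followed after 22 bp in HLA-DRB1, HLA-DQB1 and HLA-DPB1 and after 23 bp in HLA-DMA. In CD74 the matching letters, after 17 bp, were on the other strand (CCAAT), a match that was admitted after the sequences had been seen, and in HLA-DMB no Y box lay in this interval. An exact X core with a Y box on the same strand occurred in 20 of the 35116 RefSeq promoters, or 0.0570%, and 4 of these belonged to class II genes (HLA-DRB1, HLA-DQB1, HLA-DMA and HLA-DRB5). With 1 mismatch allowed, the pair occurred in 1.32% of all promoters, and in 2.66% with the Y box on either strand. The X core alone, with 1 mismatch and on either strand, is common: it occurred in 43.9% of all promoters and in 7 of the members' 9.

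These stretches were open in 5 of the 6 genes. A share for like stretches over all promoters was not computed. For comparison, 79.3% of all protein-coding genes had a peak within 1 kb of an annotated TSS in both replicates. Peaks covered all 58 bases of the stretch in HLA-DPB1, all 59 in HLA-DMA, all 31 in HLA-DMB and all 53 in CD74 in both replicates, and 52 and 50 of the 58 bases in HLA-DQB1 in replicates 1 and 2. In HLA-DRB1, 0 of 58 bases lay under a peak in either replicate. An exact X core with its Y box was thus present both in the strongest of these promoters, HLA-DMA, and in the one without a peak.

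A peak lay within 1 kb of an annotated TSS in both replicates for 9 of the 10 members, against 79.3% of all protein-coding genes. HLA-DRB1 was the exception. With the canonical TSS of each gene alone (that of the transcript that Ensembl marks as representative), 7 of 10 members had a peak, against 73.5% of all genes. Both shares are near their background. Promoters poor in CpG dinucleotides are less often open, and 42.4% of the 4440 genes with only such promoters had a peak at the canonical TSS. By the same measure (observed over expected CpG under 0.6), 8 of the 9 RefSeq promoters of the members were poor in CpG, with ratios from 0.0627 in HLA-DQA1 to 0.445 in HLA-DQB1. The other was the first promoter of HLA-DPA1, at 0.837. For a gene body with 5 kb on either side, 9 of 10 members had a peak in both replicates, against 91.8% of all genes.

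The members differed far more in strength than in presence. At the canonical TSS, the fold enrichment ran from 5.52 and 6.41 (replicates 1 and 2) at HLA-DQB1 to 153 and 167 at HLA-DMA. Over all protein-coding genes with a canonical TSS peak, the median was 48.1 and 49.8, with an interquartile range of 24.6 to 78.5 and 24.8 to 80.5. HLA-DMA and HLA-DMB lay above this range, HLA-DPB1 within it, and HLA-DRA, HLA-DQB1, CD74 and CIITA below it in both replicates. For genes with CpG-poor promoters the median was 20.02 and 19.5.

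**Figure D1:**
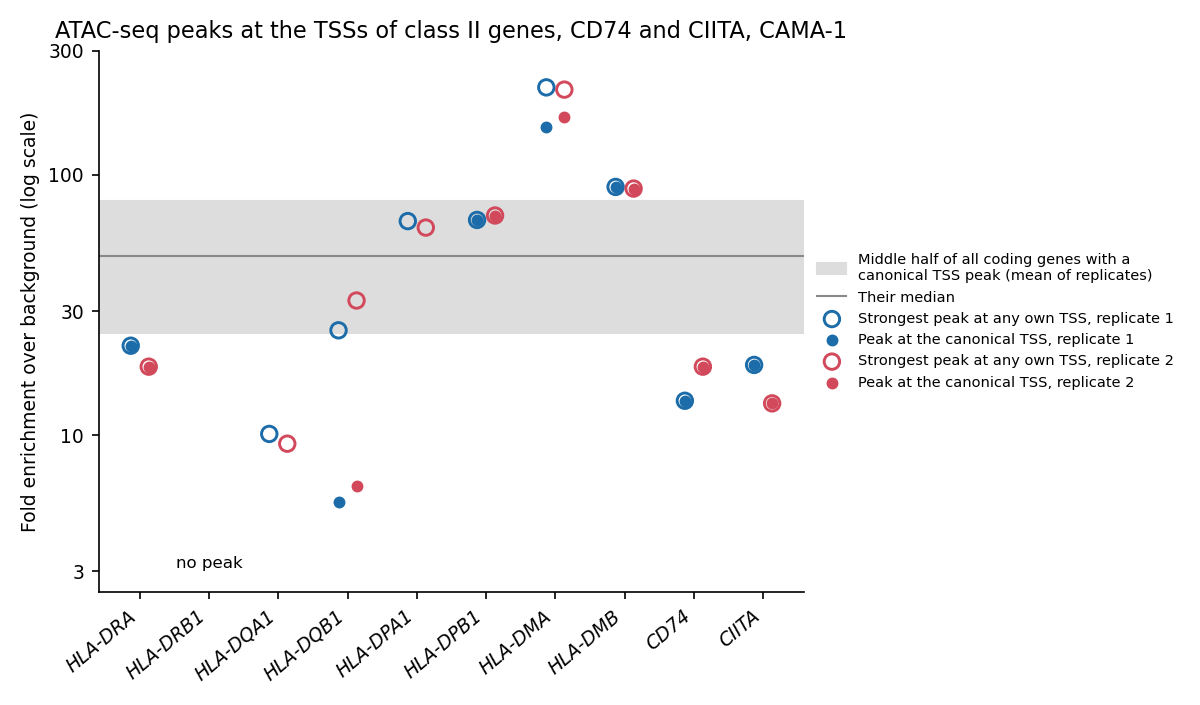
Fold enrichment (log axis) of the strongest peak within 1 kb of any own TSS (rings) and of the canonical TSS (dots) for each of the 10 genes in replicates 1 and 2, with the median and interquartile range of all protein-coding genes as a line and a band. Dots are missing for HLA-DRB1, HLA-DQA1 and HLA-DPA1, and HLA-DMA and HLA-DMB lie above the band.

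HLA-DM edits the peptides of class II molecules in endosomes, and its genes held the strongest class II promoters. The peak over the canonical TSS of HLA-DMA (chr6:32952852-32953537) had a fold enrichment of 153 in replicate 1 and 167 in replicate 2 (mean 160 ± 9.54, SD, n = 2). This placed it at percentiles 96.9 and 97.9 of canonical TSS peaks. A stronger peak, with folds of 217 and 213, covered 2 upstream TSSs of HLA-DMA, but these lie 71 and 150 bp from a TSS of BRD2, a chromatin reader transcribed in the other direction, and the region extended over 7705 bp into BRD2. It cannot be assigned to either gene. The canonical promoter of HLA-DMA also starts 1 other annotated gene, a readthrough of HLA-DMA and HLA-DMB (ENSG00000248993), 14 bp away. HLA-DMB (chr6:32940616-32941606) had folds of 90.0 and 88.7 (mean 89.3 ± 0.915, SD, n = 2) at percentiles 81.4 and 79.8. Both replicates of HLA-DMA exceeded both of HLA-DMB. Introns of HLA-DMA carried 3 further regions away from its TSSs, of which the one at chr6:32954939-32955374 reached 50.9 and 46.4. Its 3′ side held another at 40.3 and 33.8, inside the readthrough gene, and HLA-DMB had a region 2967 bp from its nearest TSS with folds of 25.5 and 22.6.

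The HLA-DP genes stand head to head, and their open promoters were of like strength. HLA-DPB1, the DP beta chain, had a peak over its canonical TSS (chr6:33075590-33076243) with folds of 67.2 and 69.9 (mean 68.5 ± 1.90, SD, n = 2). HLA-DPA1, the DP alpha chain, had no peak within 1 kb of its canonical TSS at position 33080710, and the closest one lay at 2034 bp in replicate 1 and at 2014 bp in replicate 2. The peak of HLA-DPA1 was instead at a second group of TSSs, 33073615 to 33073649 (chr6:33073541-33073903), with folds of 66.5 and 62.8 (mean 64.6 ± 2.61, SD, n = 2). Transcripts from either group share a start codon at 33073570, so both promoters can give the same coding sequence. A further TSS of HLA-DPA1, at 33069248, had a peak of 10.8 and 11.5. The open promoters of the pair are 2341 bp apart, and the replicates of HLA-DPA1 and HLA-DPB1 did not overlap, though the difference was small beside the spread among members. The intronic region chr6:33082724-33083078 of HLA-DPB1 had folds of 30.8 and 28.3.

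The second promoter of HLA-DPA1 was open over 293 of its 300 bases in replicate 1 and all 300 in replicate 2. It is shown because it had no X core within the mismatch limit on the strand of the gene and no exact Y box. On the other strand lay 2 X core matches, each with at most 1 mismatch. Both absences hold for the limits used. The stretch agcaacagaga, on the strand of the gene, has the letters of the X core with more than 1 mismatch. It is followed by atagg, which differs from ATTGG by 1 letter. Capitals mark a CRE core (TGACG, here on the other strand) and an IRF element (GAAANNGAA), 241 and 192 bp upstream of the start of this promoter.
HLA-DPA1, second promoter, chr6:33073600-33073899, minus strand: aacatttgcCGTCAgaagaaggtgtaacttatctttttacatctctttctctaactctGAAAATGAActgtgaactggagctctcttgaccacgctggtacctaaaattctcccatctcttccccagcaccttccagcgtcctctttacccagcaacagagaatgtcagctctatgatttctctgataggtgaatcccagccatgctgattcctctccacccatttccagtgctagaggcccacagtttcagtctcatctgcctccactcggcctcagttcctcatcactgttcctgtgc

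In HLA-DQA1 and HLA-DQB1, the DQ chains, the strongest TSS peak was not at the canonical TSS. HLA-DQA1 had no peak within 1 kb of its canonical TSS at 32637406, and the nearest was 9205 bp away in replicate 1 and 9221 bp in replicate 2. That peak (chr6:32627926-32628201) lay over an upstream TSS of 1 transcript at 32628179, with folds of 10.1 and 9.29 (mean 9.71 ± 0.592, SD, n = 2), and it was the only region in the 28.9 kb window of the gene. At HLA-DQB1 the canonical TSS had folds of 5.52 and 6.41, from heights of 23 (95% exact Poisson interval 14.6 to 34.5) and 28 (18.6 to 40.5). These intervals overlap, and they cover counting error only. An upstream TSS of HLA-DQB1 at 32668383, the start of 1 transcript, had a peak (chr6:32668369-32668714) with folds of 25.3 and 32.9 (mean 29.1 ± 5.40, SD, n = 2). Both of its replicates were above both replicates of the canonical TSS.

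The promoter of HLA-DQA1 is shown as the closed counterpart. No X core with at most 1 mismatch was found on either strand of its 300 bases. This absence holds for the limit used. The stretch agtaactgaga, upstream of the ATTGG, has the letters of the X core with more than 1 mismatch. Capitals mark Y boxes, as CCAAT and as ATTGG, and a GAS element (TTCNNNGAA), an element of interferon gamma responses, 200 bp upstream of the start.
HLA-DQA1, chr6:32637156-32637455, plus strand: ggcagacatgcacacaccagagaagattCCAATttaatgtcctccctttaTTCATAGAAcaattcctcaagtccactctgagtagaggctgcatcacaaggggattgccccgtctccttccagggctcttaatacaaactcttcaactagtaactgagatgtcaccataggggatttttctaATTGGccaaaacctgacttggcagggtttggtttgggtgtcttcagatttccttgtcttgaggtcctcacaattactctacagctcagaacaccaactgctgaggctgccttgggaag

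Across the members' 9 promoters, the IRF element occurred in 4 (HLA-DRB1, HLA-DPA1 second promoter, HLA-DMB and CD74), against 8.11% of all promoters. The CRE core occurred in 5 of 9, against 24.6%, and the Y box anywhere in the promoter in 7 of 9, against 34.6%. GAS was found in 1 of 9, against 7.66%, and the E box CACGTG in 0 of 9, against 7.26%. Both strands were searched, and 3 pairs of these matches overlapped within the members' promoters. These are matches of letters, not measured binding.

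The DR genes split. HLA-DRA, the DR alpha chain, had a peak over its TSS (chr6:32439665-32439943) with folds of 22.1 and 18.4 (mean 20.2 ± 2.64, SD, n = 2), near the median of CpG-poor promoters. An intronic region followed 2204 bp away, with folds of 9.89 and 11.7, and a weaker one preceded it at 6.90 and 5.75. HLA-DRB1, the main DR beta chain, had no peak in its gene or within 5 kb of it in either replicate. From its canonical TSS to the closest peak it was 19956 bp in replicate 1 and 19953 bp in replicate 2. The gene lay in a gap without peaks of 87.8 kb, from 32522032 to 32609804 in replicate 1, while the median gap between neighbouring peaks was 3339 bp in replicate 1 and 3320 bp in replicate 2. Longer gaps made up 1.65% and 1.38% of all gaps. HLA-DRB5, the paralog whose body holds the last peak before the gap, had no TSS peak either.

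How well reads can be placed differs among these genes. Of words of 100 bases in the window of HLA-DRB1, 2.21% had an exact copy elsewhere on the chromosomes of hg38, against 0.914% for HLA-DQA1, 0.173% for HLA-DRA and 0.0957% for CIITA. The contrast depends on word length. With 50 bases the shares were 6.74% for HLA-DRB1, 9.46% for HLA-DQA1, 5.07% for HLA-DRA and 2.84% for CIITA. Around the canonical TSS of HLA-DRB1 the share for 100 bases was 2.16%, so most words there were unique in the reference. All words of 100 bases of HLA-DRA, HLA-DPA1 and HLA-DPB1 (100%) had copies on the other sequences of hg38, such as alternative haplotypes. Peaks were called at these genes. Whether the reads were aligned with these other sequences included is not given in the sources used here. Within the HLA-DRB1 window 2.66% of words of 100 bases were found on those sequences, against 22.4% for HLA-DQA1. These shares describe the reference alone, and differences between it and the DNA of CAMA-1 were not examined. The part of read placement in the absence of peaks at HLA-DRB1 was not tested.

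**Figure D2:**
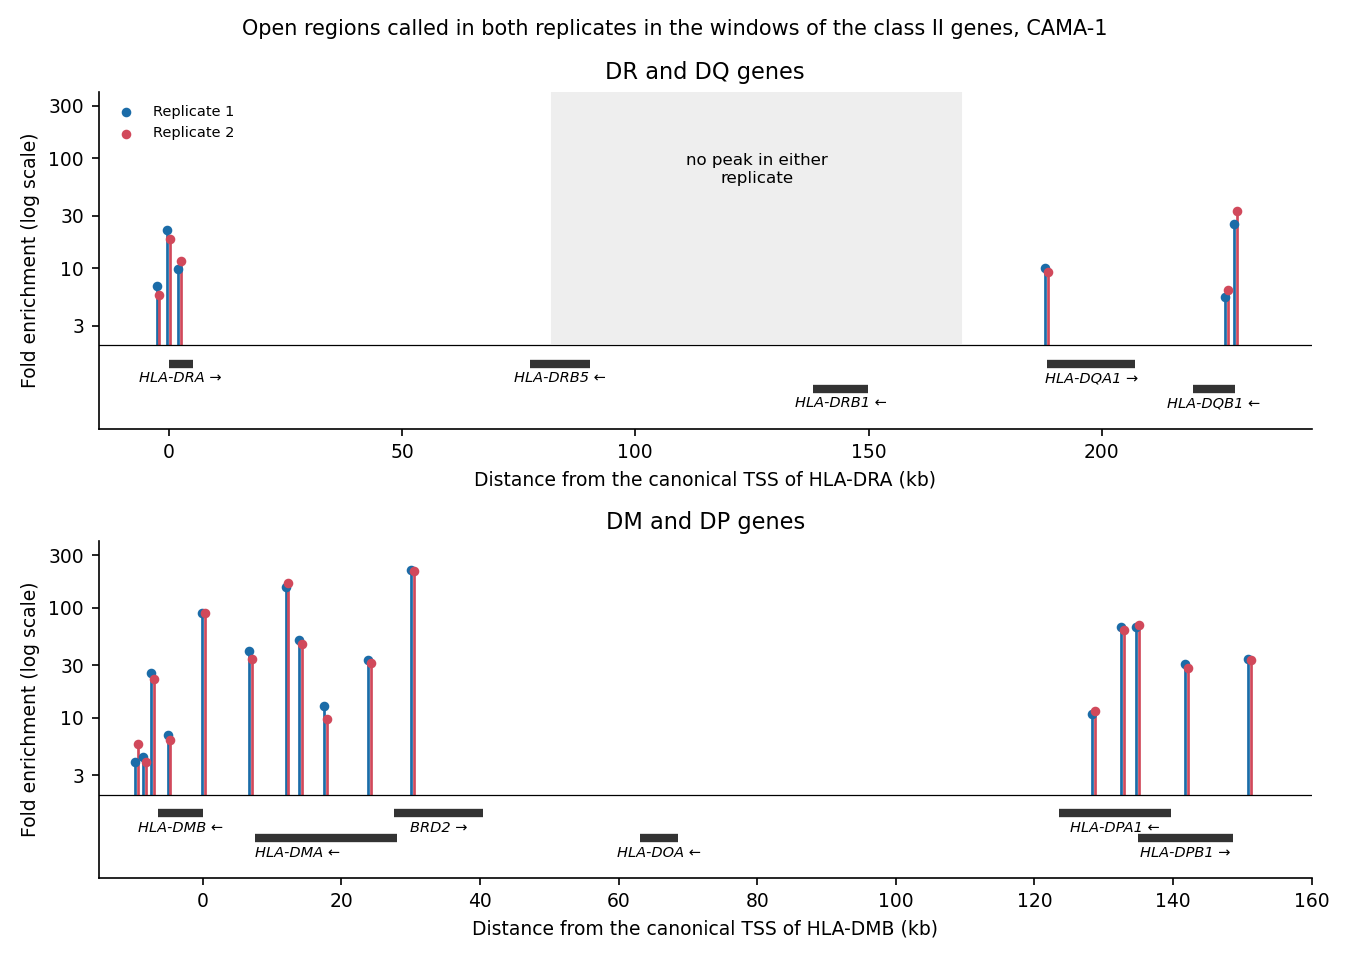
Fold enrichment (log axis) of the regions called in both replicates within the members' windows, by distance in kb from the canonical TSS of HLA-DRA (top) and of HLA-DMB (bottom), with genes as bars, arrows for their strand, and the 87.8 kb gap shaded. Regions outside the members' windows are not drawn. Stems are few and under 35 in the DR and DQ genes and reach over 100 at HLA-DMA.

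CD74, the invariant chain, had 9 regions in a window of 21.3 kb, or 4.22 per 10 kb, the highest density among the members (percentile 94.2 of protein-coding genes, whose median was 1.19). Its TSS was modestly open (chr5:150412393-150413136), with folds of 13.6 and 18.4 (mean 15.96 ± 3.38, SD, n = 2). The strongest region of CD74 was in its intron (chr5:150409659-150411589), with its near edge 1157 bp from the nearest TSS, and had folds of 143 and 142 (mean 142 ± 0.966, SD, n = 2), at percentiles 99.6 and 99.5 of all peaks. In replicate 1 a single peak reached this edge. In replicate 2 the strongest peak of the region lay 2270 bp from the TSS, and the peak at 1157 bp had a fold of 9.73. A region with 41.6 and 43.8 lay past the 3′ end of CD74 in an intron of TCOF1, a nucleolar protein gene that ends 1329 bp from CD74. The other 6 regions had mean folds from 3.83 to 6.73, so the density of the window rests largely on weak regions. Some of these weak regions lay in the flank, outside the body of CD74. TSS peaks of the neighbours were far stronger than that of CD74: 110 and 104 at TCOF1, and 61.7 and 68.5 at RPS14, which encodes a ribosomal protein, 29666 bp away.

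CIITA is described by promoter. Its 16 annotated TSSs formed 9 groups, and the names pI, pIII and pIV were given to 3 of them from the order along the gene and the position of the start codon. At pIII (canonical TSS 10877202), a peak (chr16:10876827-10877814) had folds of 18.6 and 13.3 (mean 15.95 ± 3.80, SD, n = 2) and heights of 80 (95% interval 63.4 to 99.6) and 59 (44.9 to 76.1). At pIV (TSS 10878969), a separate peak (chr16:10878429-10879064) had folds of 12.2 and 11.7 (mean 12.0 ± 0.336, SD, n = 2) from a height of 52 in each replicate. Both replicates at pIII lay above both at pIV, but the SD at pIII was nearly as large as the difference between the means. At pI (TSSs 10866222 to 10866260) no peak lay within 1 kb in either replicate. The nearest was 2078 bp away in replicate 1 and 2007 bp in replicate 2. Of the other groups, that at 10922925 had a peak of 11.04 and 9.51, at 514 and 568 bp from the TSS. That at 10940719 had one of 5.52 and 5.53, at 669 and 693 bp. The latter peak is part of the region over a TSS of DEXI that is described below.

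The strongest region in the body of CIITA was not a promoter. An intronic region 4040 bp from pIV (chr16:10883009-10883455) had folds of 58.2 and 68.5 (mean 63.4 ± 7.31, SD, n = 2), and another at chr16:10918754-10919117 had 46.0 and 47.3. At the 3′ end, the TSS region of DEXI, a gene that overlaps CIITA, had 35.7 and 35.4. CLEC16A, which begins 1518 bp beyond CIITA, had 63.7 and 72.3 at its TSS, while TVP23A on the other side had no TSS peak. In all, CIITA had 19 regions in 86.8 kb, or 2.19 per 10 kb (percentile 73.1).

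**Figure D3:**
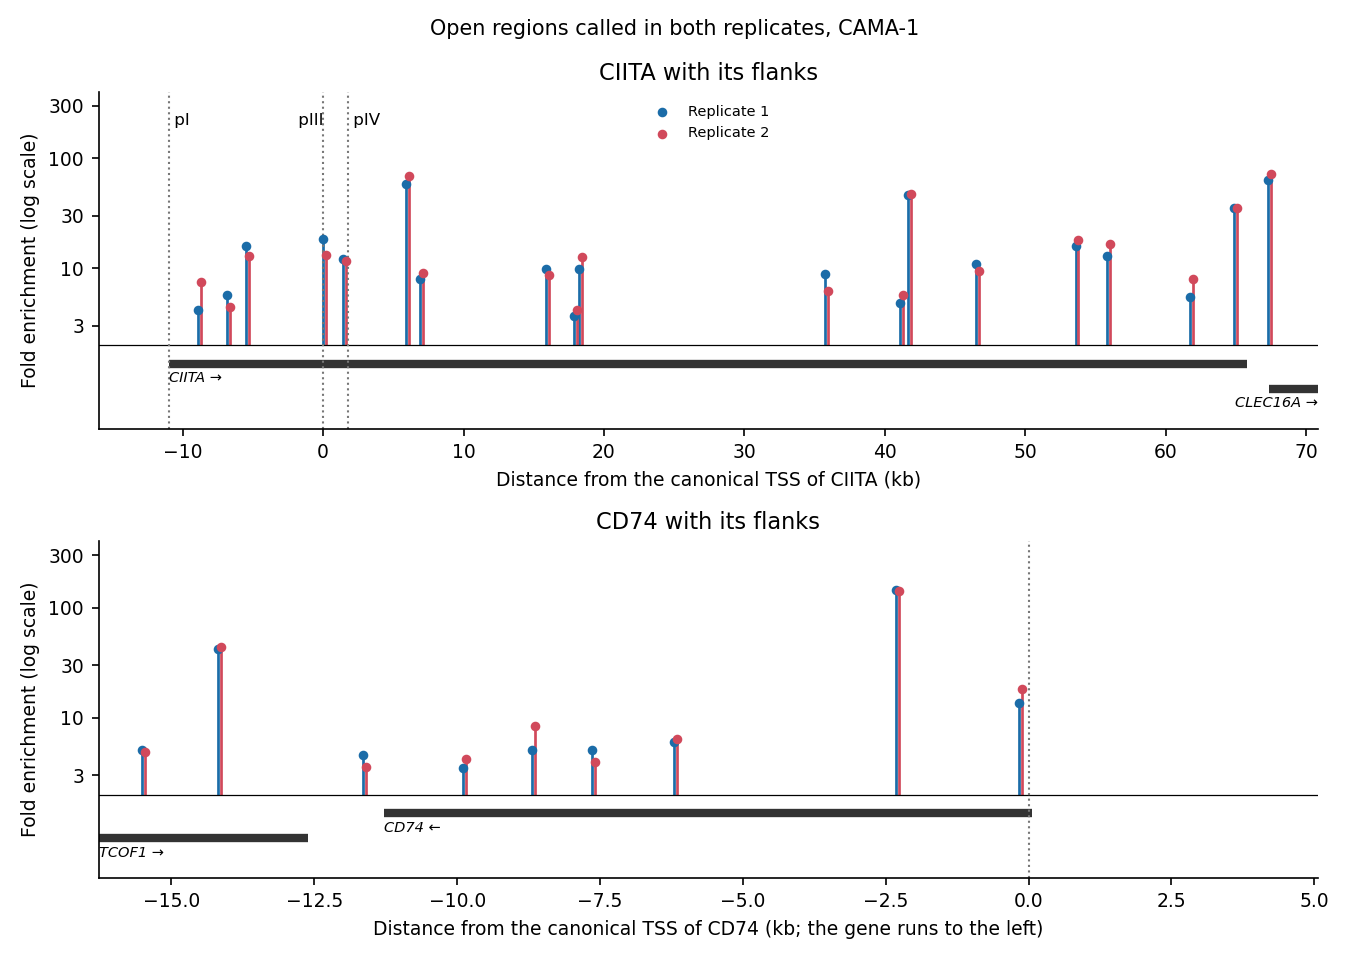
Fold enrichment (log axis) of regions called in both replicates over CIITA (top) and CD74 (bottom) with 5 kb on either side, by distance in kb from the canonical TSS; dotted lines mark pI, pIII and pIV of CIITA and the TSS of CD74, and bars are genes (DEXI is not drawn). In both genes the highest stem within the gene body is an intronic region, at 58.2 and 68.5 in CIITA and at 143 and 142 in CD74.

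Over all 10 windows, 50 separate regions were called in both replicates, of 215195 in the genome, and 3 of them lay in the windows of both HLA-DPA1 and HLA-DPB1. Of the 50, 16 were within 1 kb of an own TSS, and 32 were more than 1 kb from a TSS of any gene. By their midpoints 26 lay in introns, 15 in exons and 9 between genes. The median fold of the members' regions was 12.4 in replicate 1 and 12.2 in replicate 2, against 9.66 and 9.95 for all regions. The replicates differed by less than 1.5-fold in 48 of the 50, against 94.3% of all regions. Peaks found in 1 replicate only were weak: 7 in replicate 1 and 5 in replicate 2, with folds from 3.76 to 5.09.

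**Figure D4:**
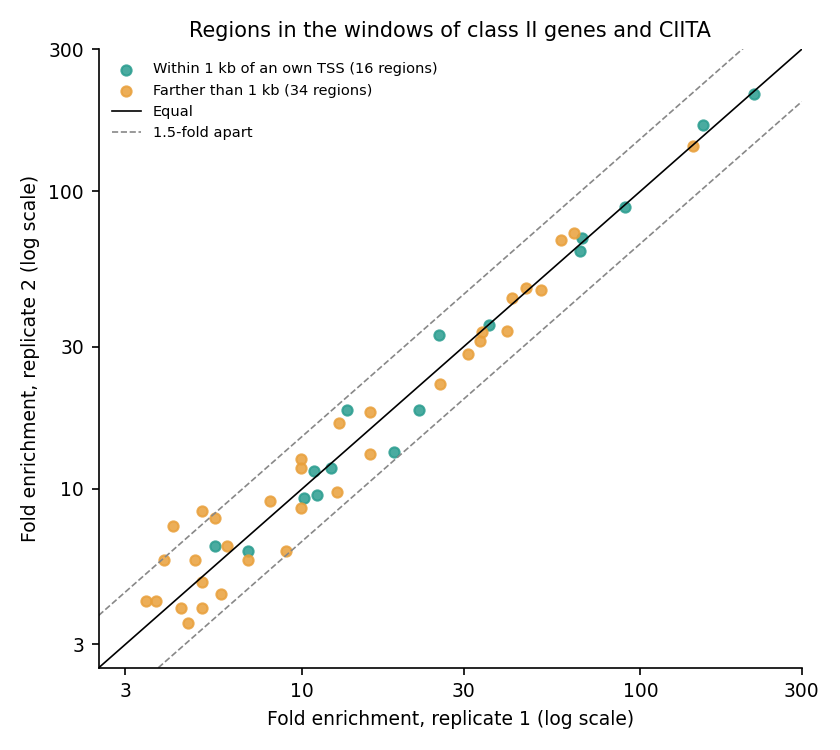
Fold enrichment in replicate 1 against replicate 2 (both log axes) for the 50 regions, coloured by whether an own TSS lies within 1 kb, with lines of equality and of a 1.5-fold difference. Of the points, 48 lie between the dashed lines, and the 2 outside are among the weak regions.

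The other genes of the pathway were read in the same way, with 24 of 27 carrying a TSS peak in both replicates, a share near the 79.3% of all protein-coding genes. The counts for each list are read against the same 79.3%. Among the other class II chains, HLA-DOB (18.9 and 23.4), HLA-DQA2 (13.8 and 15.5), HLA-DOA (8.05 and 13.5) and HLA-DQB2 (4.60 and 4.42) had one, and HLA-DRB5 did not. All 7 genes of the factors on class II promoters were open, from RFXAP (24.2 and 30.3) to RFX5 (207 and 195) and NFYA (212 and 197). All 7 genes from the interferon gamma receptor to CIITA were open, from JAK1 (23.9 and 28.1) to IRF1 (140 and 148). Of the 5 genes of endosomal processing, each had a peak, the weakest at CTSS (9.43 and 9.73), the protease that trims CD74, and the strongest at LGMN (101 and 98.4). Of 3 genes that regulate CIITA in blood cells, PRDM1, a repressor, had a peak (34.3 and 30.7), and SPI1 and IRF4, both activators, had none. The median TSS fold was 10.9 and 14.5 over the 4 other class II chains with a peak, and 100.1 and 101 over the promoter factors.

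In the class II region from BTNL2 to COL11A2, 799 kb with 22 protein-coding genes, 12 of the 14 genes that are not members had a TSS peak in both replicates, again near the 79.3% of all protein-coding genes. These 12 genes do not stand for as many separate peaks. BRD2 and the readthrough gene ENSG00000248993 shared theirs with HLA-DMA, and some of the others shared a peak among themselves. TAP1 (86.1 and 96.0) and TAP2 (111 and 111), which carry peptides for class I molecules, and PSMB8 (161 and 172), a subunit of the immunoproteasome, had higher folds than every canonical TSS of a class II chain other than those of HLA-DMA and HLA-DMB. The peak of PSMB8 also lay within 1 kb of a TSS of PSMB9, and that of TAP1 within 1 kb of the canonical TSS of PSMB9. Neither peak can be assigned to a single gene.

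The label of the cells was set beside markers. All 8 luminal epithelial markers (EPCAM, KRT8, KRT18, KRT19, ESR1, GATA3, FOXA1 and TFF1) had a TSS peak in both replicates, with folds from 31.3 to 147. Of all protein-coding genes 79.3% had one, so this count alone says little about the label. The median TSS fold of genes with a peak was 51.1 and 52.6 (replicates 1 and 2). ESR1, GATA3 and TFF1 lay below it in both replicates and the other luminal markers above it. Among markers of blood and antigen-presenting cells, ITGAX (4.14 and 4.64) and CSF1R (19.1 and 19.9) had one in both replicates, CD86 had one in replicate 2 alone (7.52), and PTPRC, MS4A1, CD79A and LYZ had none in either replicate.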

How the data were processed

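ATAC-seq of CAMA-1 was analysed in 2 biological replicates. According to the labels and processing notes, reads were trimmed with Trim Galore 0.6.5, aligned to hg38 with Bowtie2 2.3.5.1 and given to MACS2 2.2.6. The MACS2 settings, the treatment of duplicates and excluded regions are not given in the sources used here. For each peak the authors deposited a score, a fold enrichment (a ratio) and −log10 transformed p-values and q-values, with no header. In 100% of peaks the deposited score equalled 10 times the −log10 q, rounded down. Heights came from the spacing of the fold values, with fold equal to (height + 1) / (background + 1). Replicate 1 held 245736 peaks and replicate 2 held 259745. The depth of reads is unknown from these lists, and weak peaks, with heights from 11, are the least certain.

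Gene bodies, TSSs and canonical transcripts came from GENCODE release 44 on hg38. Windows were the gene with 5 kb on either side and 1 kb around each TSS, an overlap of 1 bp counted, and peaks of both replicates that overlapped were merged into regions. TSSs within 500 bp formed a group. Promoter sequences came from RefSeq (GRCh38.p14). Python 3.11.15, numpy 2.4.6, pandas 2.3.3, scipy 1.17.1 and matplotlib 3.10.9 were used, and the functions were tested on simulated data. With a single condition no test was run. All members are named, with the pathway lists, the region from BTNL2 to COL11A2 by counts and at most 6 values, and the nearest coding genes of CD74 and CIITA. DEXI was named after its values were seen. No likeness between genes was computed. The members, lists, motifs and markers were chosen with earlier results of these data known. Results for some genes of these lists are not reported here.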

Additional observations from a re-analysis of the deposited data

How the results depend on the processing

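Of 43 alternatives to 7 results, 36 left the result within its spread or within 1.5 times the count, 7 moved it and 0 reversed it. With only the 50000 strongest peaks of each replicate, members with a TSS peak fell to 5, regions to 17 and CIITA promoters to 0. Flanks of 20 kb raised the regions from 50 to 88. A distance of 3 kb to the TSS raised the CIITA promoters from 2 to 3, by adding pI, within 1.5 times the main count. The median over members of the strongest TSS peak was 29.1, lay between 25.3 and 32.9 when either replicate was left out, and was 20.2 with the canonical TSS alone, an alternative chosen after the data had been seen. Members with a TSS peak numbered 7 with the most 5′ or the canonical TSS alone, and 8 with a reciprocal overlap of 50% between replicates. No paired analysis was possible because the study holds no second group here. The precision rests on 2 replicates of 1 condition. Peaks just above the threshold, and closed promoters, depend on depth, so a missing peak at HLA-DRB1, HLA-DQA1 or CIITA pI means that none was detectable here.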
